A study of Mus musculus with 12 samples.

Results

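Lung microRNA levels in all irradiated mice of the study were compared with those in all unirradiated mice, with diet held as a block, and the assays that lay on the same side in both diets were examined most closely. All 12 mice of the series entered the comparison, 6 irradiated and 6 unirradiated. Irradiated flaxseed mice (mice 15, 17 and 18) ate feed with 10% flaxseed for 21 days and received 13.5 Gy, with lungs collected 48 h later. Unirradiated flaxseed mice (mice 11, 12 and 13) ate the same feed and received no radiation. Irradiated control-diet mice (mice 7, 8 and 9) received 13.5 Gy on feed without flaxseed, and unirradiated control-diet mice (mice 2, 4 and 5) received neither. All were of the C57BL/6 strain, and each sample was a piece of whole lung from 1 mouse. The sex and age of the mice, the part of the body irradiated and the make-up of the control diet are not given in the sources used here.

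MicroRNAs are short RNAs cut from hairpin precursors that hold down messenger RNAs with sites complementary to the seed, the bases near their 5′ end that do most of the pairing. Ionising radiation breaks DNA and activates p53, which directly induces the miR-34 family and, in human cells, miR-192 and miR-215. Irradiated lung later develops inflammation and then fibrosis, in which miR-155, miR-146a, miR-21 and the collagen-repressing miR-29 family are much studied. Each microRNA was measured by quantitative PCR as a threshold cycle, the cycle at which the reaction crosses a set signal, so a lower cycle means more template. Levels below are on the log2 scale, turned so that higher means more RNA, relative to the average of 260 microRNAs in each mouse. Reactions that crossed below 28 cycles counted as detected. Of 312 microRNA assays detected in at least 1 mouse, 296 were detected in at least 2 of 3 mice of every group and were tested. A difference is irradiated minus unirradiated, given with its standard error (SE).

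The mature sequences of microRNAs that lay on the same side in both diets are shown first, because shared seeds tie some of them into families. They are from RefSeq (build GRCm38.p6) and are written 5′ to 3′ with the seed, bases 2 to 8, in capitals. The 8 lower in irradiated mice of both diets come first, then 6 that were higher in both, and miR-29c, which shares its seed with miR-29b but was on opposite sides in the diets.
miR-26a: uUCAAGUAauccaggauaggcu
miR-26b: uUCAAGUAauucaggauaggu
miR-192: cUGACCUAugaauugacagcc
miR-215: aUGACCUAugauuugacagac
miR-99b: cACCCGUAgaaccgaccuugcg
miR-222: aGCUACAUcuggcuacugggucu
miR-186: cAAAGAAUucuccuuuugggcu
miR-532-3p: cCUCCCACacccaaggcuugca
miR-205: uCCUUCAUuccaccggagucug
let-7e: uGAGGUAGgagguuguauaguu
miR-365: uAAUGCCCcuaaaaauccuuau
miR-29b: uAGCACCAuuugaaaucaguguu
miR-148a: uCAGUGCAcuacagaacuuugu
miR-181a: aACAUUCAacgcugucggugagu
miR-29c: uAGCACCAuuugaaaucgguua

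miR-26a is encoded at chr9:119031811-119031832 and chr10:126995543-126995564, and miR-26b at chr1:74394324-74394344, all on the plus strand. miR-99b (chr17:17830194-17830215) and let-7e (chr17:17830366-17830387) lie close together on the plus strand of 1 cluster. miR-29b has a copy at chr1:195037091-195037113 beside miR-29c at chr1:195037600-195037621. Of 89 tested assays with an arm given in their name or fixed for this work, 78 were found in the RefSeq table. miR-466a-3p, miR-466b-3-3p, miR-187, miR-124a, miR-375, miR-328, miR-150, miR-34c, miR-30b, miR-30d and miR-301b were not.

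The signal itself differed between the groups before any scaling. The mean threshold cycle of the 260 microRNAs was 19.72 ± 0.17 in irradiated mice, against 20.26 ± 0.50 in unirradiated mice (SD, n = 6 each), a difference of -0.54. In flaxseed mice the means were 19.98, 19.44 and 19.66 after irradiation, against 20.42, 20.07 and 21.20 without it. In control-diet mice they were 19.74, 19.74 and 19.76 after irradiation, against 19.91, 20.09 and 19.85 without it. The groups did not overlap in either diet, and the exact two-sided permutation p within diets was 0.005, the smallest that 400 arrangements of 3 against 3 in each diet can give. Detected microRNA assays numbered 309.5 ± 2.2 in irradiated mice and 299.2 ± 11.6 in unirradiated mice (SD, n = 6 each; exact permutation p = 0.09), with 281 to 297 in unirradiated flaxseed mice and 307 to 312 in the other 9. The 10 control RNAs had a mean threshold cycle of 15.89 ± 0.24 in irradiated mice and 16.38 ± 0.59 in unirradiated mice (exact permutation p = 0.08). Their share in the results that follow was not tested.

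**Figure D1:**
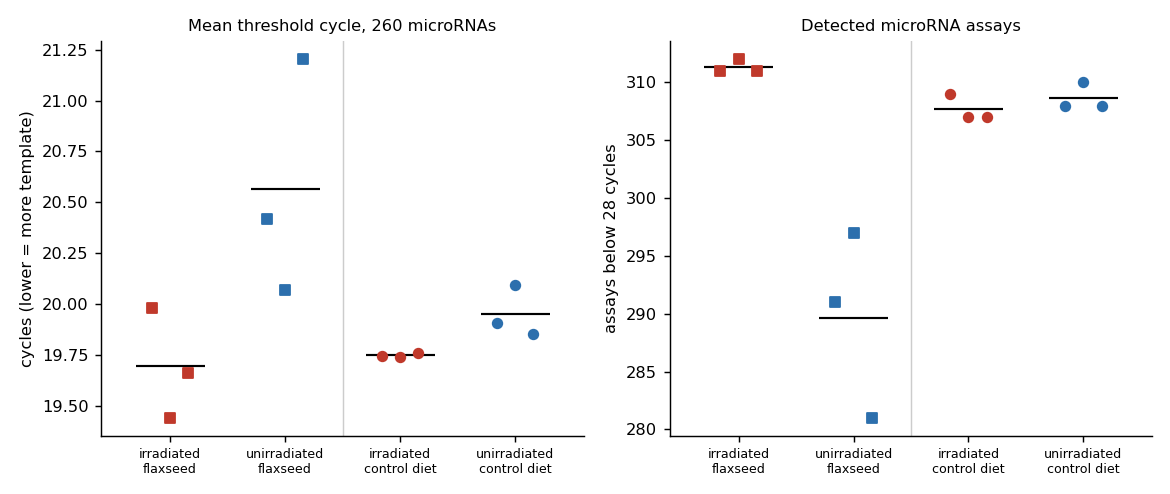
Mean threshold cycle of 260 microRNAs (left, in cycles, lower meaning more template) and number of detected microRNA assays (right) in each mouse, by diet and radiation. Points are mice, squares flaxseed and circles control diet, and bars are group means. Irradiated mice averaged 19.72 cycles and unirradiated mice 20.26, and the 3 unirradiated flaxseed mice had the fewest detected assays, 281 to 297.

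Relative to that mean, no microRNA differed between irradiated and unirradiated lungs past the threshold. In limma's fit with diet as a block, 0 of 296 assays (0%) were called at a Benjamini-Hochberg adjusted p under 0.05. miR-466b-3-3p came closest, with an adjusted p of 0.139. At an unadjusted p under 0.05 there were 27 assays (9.12%), 8 higher (2.70%) and 19 lower (6.42%) in irradiated mice. A fit of 4 group means, which does not count disagreement between the diets as error, also called 0 (0%) with 50 (16.9%) at an unadjusted p under 0.05. The median SE was 0.25 and the median 95% interval reached 0.54 to either side, and 206 of the 296 intervals lay wholly between -1 and 1 on the log2 scale. Precision was better for abundant microRNAs, with a median SE of 0.22 for the 124 assays with a mean below 20 cycles and 0.32 for the 64 above 24 cycles. In whole lung, fewer cells of a type and less RNA per cell cannot be told apart in any of these values.

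The radiation difference agreed in sign between the diets for a minority of assays. Of 296 assays, 112 (37.8%) were on the same side in both diets, 79 lower (26.7%) and 33 higher (11.1%) in irradiated mice. The other 184 were on opposite sides, 118 of them lower in irradiated flaxseed mice and higher in irradiated control-diet mice. The diets share no mice, and across the 296 assays their differences had a Spearman correlation of -0.35 and a Pearson correlation of -0.19, given as a description since assays in 1 mouse share its RNA and its scaling. Within each diet, radiation also cannot be told apart from a split in the decimal places of the deposited values, described with the interaction below, which runs in opposite directions in the diets. The counts by direction, the correlation and every difference within a diet carry it. Differences were larger in flaxseed mice, with a median size of 0.49 and 50 assays beyond 1 on the log2 scale, than in control-diet mice, with a median size of 0.25 and 21 assays. The split between lower and higher depended on the scaling. With no scaling, the median difference of all assays was 0.45 instead of -0.07, 197 assays had the same direction and 8 of those were lower. With quantile normalization 46 of 107 were lower, and with scaling to the median assay 48 of 92. Directions below are therefore relative to the average microRNA of each mouse.

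**Figure D2:**
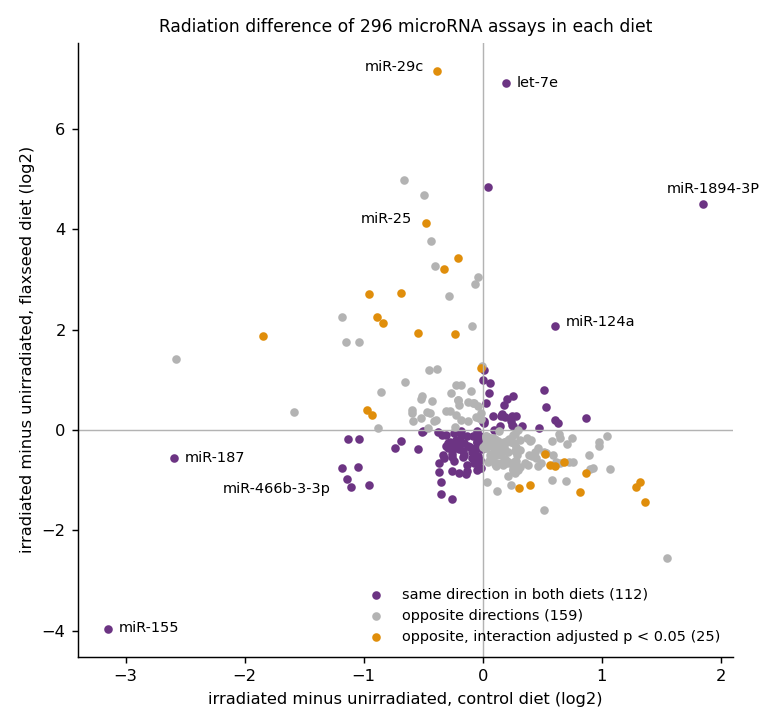
Radiation difference (irradiated minus unirradiated, log2 scale) of 296 microRNA assays in the control diet (horizontal axis) and the flaxseed diet (vertical axis). Purple points, 112 assays, have the same sign in both diets, grey and orange points, 184 assays, have opposite signs, and the 25 orange points passed the test of the difference between diets.

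In 4 assays (1.35%) all irradiated mice lay on the same side of all unirradiated mice in both diets. Undetected reactions were left out, and in all 4 assays the irradiated mice were lower. Taken diet by diet, 86 assays (29.1%) separated lower in flaxseed mice, where 46 (15.5%) separated higher, and 18 (6.08%) separated lower in control-diet mice. Whether 4 is more than those shares alone would give was not tested. With undetected reactions set to 28 cycles, 3 assays separated, miR-26a, miR-187 and miR-466a-3p, but not miR-466b-3-3p. Which assays separated also depended on the scaling. With no scaling there were also 4, all higher in irradiated mice (miR-106b#, miR-205, miR-213 and miR-338), and with scaling to the control RNAs they were miR-30c, miR-375, miR-455 (assay 002455A) and miR-466b-3-3p, all lower. miR-466b-3-3p and miR-466a-3p belong to the rodent microRNA cluster in an intron of the imprinted Polycomb-related gene Sfmbt2. miR-466b-3-3p was at -5.33, -5.94 and -5.74 in irradiated flaxseed mice, against -4.98 and -4.85 in unirradiated flaxseed mice, with mouse 12 undetected. It was at -5.44, -6.04 and -5.90 in irradiated control-diet mice, against -4.73, -4.86 and -4.23 in unirradiated control-diet mice. Among mice in which it was detected, the pooled groups also did not overlap. The balanced difference was -0.99 ± 0.20 (95% interval -1.43 to -0.55), or 1.99-fold lower. miR-466a-3p was at -5.92, -6.49 and -5.92 in irradiated flaxseed mice, against -5.12, -5.28 and -4.10 in unirradiated flaxseed mice. Its levels in control-diet mice were -5.82, -5.47 and -5.55 after irradiation, against -5.34, -5.26 and -5.17 without it. The balanced difference was -0.81 ± 0.25, with -1.27 ± 0.30 in flaxseed and -0.35 ± 0.30 in control-diet mice, and limma's adjusted p was 0.476. Both assays read late, at mean cycles of 25.26 and 25.44, near the detection limit. Both stayed below 0 under every alternative in which they were tested, from -1.18 to -0.39 for miR-466b-3-3p and from -0.91 to -0.28 for miR-466a-3p, and neither was called under any. Without scaling miR-466b-3-3p was 0.36 higher in irradiated flaxseed mice.

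miR-26a, an abundant microRNA that represses the Polycomb methyltransferase Ezh2, was at 7.64, 7.55 and 7.88 in irradiated flaxseed mice, against 8.48, 8.31 and 7.92 in unirradiated flaxseed mice. In control-diet mice it was at 7.62, 7.54 and 7.50 after irradiation, against 7.68, 7.66 and 7.82 without it. The groups separated narrowly, and the balanced difference was -0.36 ± 0.15 (limma adjusted p = 0.476). It was 0.18 with no scaling, and in control-diet mice alone its sign turned with quantile normalization (0.34). miR-187 was at -2.29, -1.59 and -1.53 in irradiated flaxseed mice, against -1.34, -1.16 and -1.20 in unirradiated flaxseed mice. It was at -2.74, -6.73 and -1.66 in irradiated control-diet mice, against -0.82, -1.50 and -1.05 in unirradiated control-diet mice. Its balanced difference of -1.58 ± 0.73 rested in large part on mouse 8, without which it was -0.80 ± 0.25 (limma adjusted p = 0.417).

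**Figure D3:**
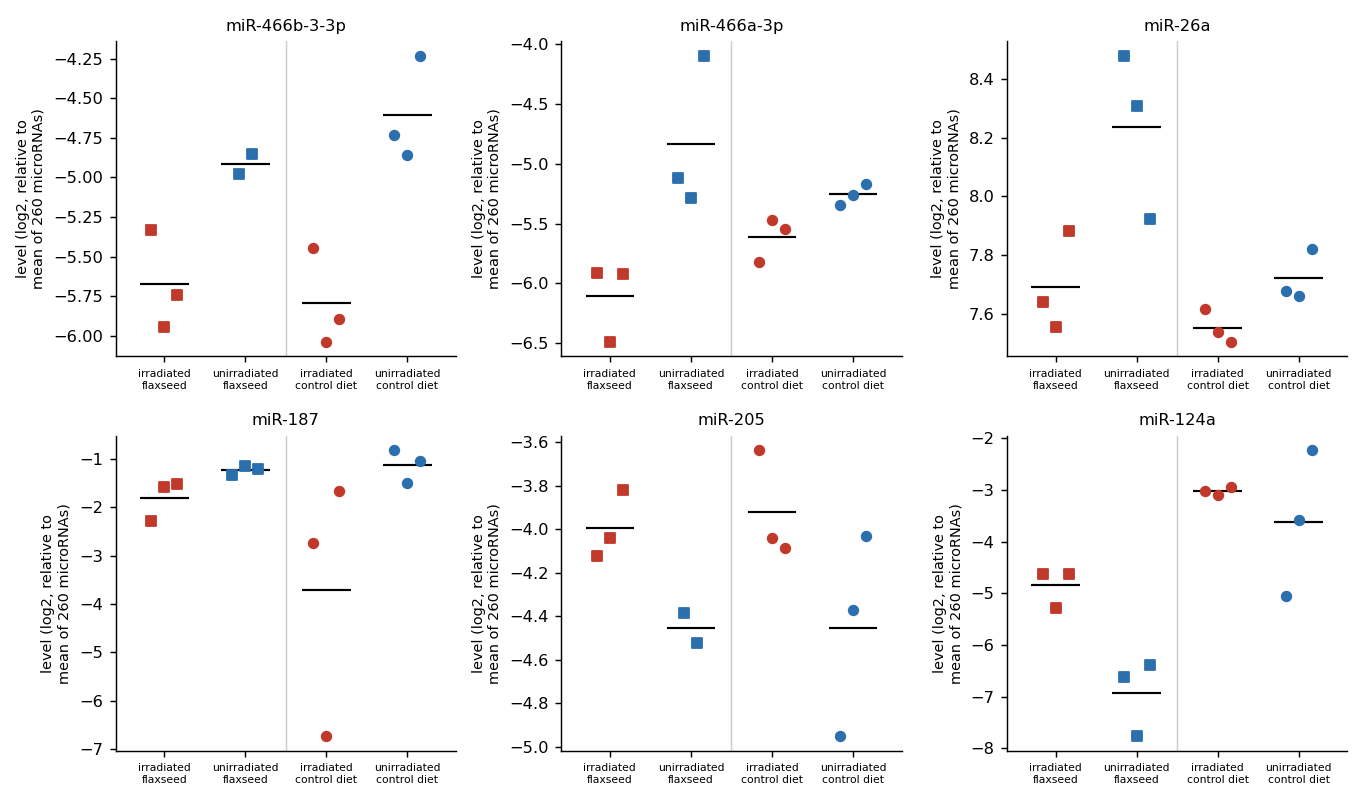
Levels of 6 microRNAs in each mouse (log2 scale, relative to the mean of 260 microRNAs), with irradiated mice left of unirradiated mice in each diet. Squares are flaxseed mice, circles control-diet mice, and bars group means. miR-466b-3-3p, miR-466a-3p, miR-26a and miR-187 were lower in every irradiated mouse than in every unirradiated mouse of the same diet with a value. miR-205 and miR-124a were higher in all irradiated flaxseed mice and overlapped in control-diet mice. miR-466b-3-3p and miR-205 were undetected in unirradiated flaxseed mouse 12, which has no point there.

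Of the 79 assays lower in both diets, 56 had the larger difference in flaxseed mice and 23 in control-diet mice, miR-215 and miR-466b-3-3p among the 23. miR-375, a microRNA of endocrine and epithelial cells, was at 1.60, 1.63 and 1.64 in irradiated flaxseed mice, against 2.53, 2.42 and 2.53 in unirradiated flaxseed mice. In control-diet mice it was at 1.17, 1.68 and 1.16 after irradiation, against 1.58, 1.29 and 1.75 without it, where the groups overlapped. The balanced difference was -0.54 ± 0.17. miR-99b, of the family that represses mTOR, differed by -0.43 ± 0.14, with -0.63 ± 0.17 in flaxseed and -0.24 ± 0.17 in control-diet mice. miR-222, which represses the cell cycle inhibitor p27, differed by -0.51 ± 0.18 and miR-186 by -0.69 ± 0.24. miR-328 was at -0.54 ± 0.20 and miR-532-3p, from an X-linked cluster in the Clcn5 gene, at -0.51 ± 0.19. These 5, named for their small p, were lower in all irradiated flaxseed mice than in any unirradiated flaxseed mouse, as were 86 of all 296 assays (29.1%), and all 5 overlapped between the control-diet groups. Limma's adjusted p was 0.476 for each. miR-455, encoded in the collagen gene Col27a1, differed by -0.82 ± 0.26 with assay 002455A, with -1.38 in flaxseed and -0.26 in control-diet mice. Assay 001280B, also named miR-455, was at 0.14 ± 0.19. Assay 001280B carries a human name and 002455A a mouse name. Neither name says which arm of the precursor is read, so the 2 may not measure the same RNA.

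Among the 78 tested assays found in RefSeq, 22 seeds were shared by at least 2 assays. Of these, UGACCUA (miR-192 and miR-215) and UCAAGUA (miR-26a and miR-26b) were the ones with all members on the same side in both diets. Both families hold only 2 assays, and 26.7% of all 296 assays were lower in both diets. Assays not found in RefSeq, miR-30b, miR-30d and miR-34c among them, were left out of the families. miR-215 was at -7.22, -7.09 and -6.27 in irradiated flaxseed mice, against -6.37 and -5.87 in unirradiated flaxseed mice, and at -8.07, -7.18 and -7.46 in irradiated control-diet mice, against -7.17 and -5.86 in unirradiated control-diet mice. It went undetected in mice 5 and 13, both unirradiated, which were left out, and its other reactions read near the detection limit. Its difference was -0.89 ± 0.32. miR-192 was at 1.86, 1.70 and 2.07 in irradiated flaxseed mice, against 2.55, 2.62 and 2.44 in unirradiated flaxseed mice, and at 1.88, 1.70 and 1.63 in irradiated control-diet mice, against 1.91, 1.60 and 1.92 in unirradiated control-diet mice, which overlapped. Its difference was -0.37 ± 0.15. miR-26b differed by -0.37 ± 0.19. With no scaling, miR-215 stayed at -0.49, whereas miR-192 was at 0.17, miR-26a at 0.18 and miR-26b at 0.16.

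Fewer assays were higher in both diets, and in 21 of the 33 the difference was larger in flaxseed mice. miR-205, a microRNA of basal epithelium that represses Zeb1 and Zeb2, was among the 12 others, with differences of 0.46 ± 0.28 in flaxseed and 0.53 ± 0.25 in control-diet mice. It was at -4.12, -4.04 and -3.82 in irradiated flaxseed mice, against -4.38 and -4.52 in unirradiated flaxseed mice, with mouse 12 undetected. In control-diet mice it was at -3.64, -4.04 and -4.09 after irradiation, against -4.95, -4.37 and -4.03 without it, so that only mouse 5 overlapped the irradiated range. The balanced difference was 0.50 ± 0.19 (limma adjusted p = 0.476), and it was between 0.35 and 1.11 under all 28 alternatives in which it was tested. miR-338, encoded in the kinase gene Aatk, differed by 0.55 ± 0.25, with 0.23 in flaxseed and 0.87 in control-diet mice, also larger in the control diet.

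miR-124a, the neuronal microRNA, was at -4.63, -5.29 and -4.63 in irradiated flaxseed mice, against -6.61, -7.76 and -6.38 in unirradiated flaxseed mice. In control-diet mice it was at -3.02, -3.09 and -2.95 after irradiation, against -5.05, -3.59 and -2.23 without it, and mouse 5 lay above all 3 irradiated mice. The balanced difference was 1.34 ± 0.46. In unirradiated flaxseed mice miR-124a read near the detection limit. let-7e was at 4.11, 5.24 and 4.52 in irradiated flaxseed mice, against -6.58, -0.67 and 0.42 in unirradiated flaxseed mice, and at 3.79, 4.52 and 5.05 in irradiated control-diet mice, against 4.85, 3.47 and 4.46 in unirradiated control-diet mice. Its balanced difference of 3.55 ± 1.38 was thus 6.90 in flaxseed and 0.20 in control-diet mice. Without mouse 11 the difference was 2.22 over both diets and 4.75 in flaxseed mice. miR-29b differed by 2.44 ± 1.08, with 4.83 in flaxseed and 0.05 in control-diet mice. Without mouse 11 its difference was 1.38 over both diets and 3.05 in flaxseed mice. For let-7e, miR-29b, miR-29c, miR-24 and miR-19a, unirradiated flaxseed mice 11, 12 and 13 all lay below every other mouse. These large flaxseed differences thus go with low levels in all unirradiated flaxseed mice, and the reason was not tested. miR-365 (0.61 ± 0.25), miR-497 of the miR-16 family (0.49 ± 0.23) and miR-148a (0.49 ± 0.24) had control-diet differences of at most 0.06. miR-181a, which tunes T cell receptor signalling, was at 0.46 ± 0.24, with 0.68 in flaxseed and 0.25 in control-diet mice. miR-1894-3P ranged from 3.01 to 10.13 in irradiated mice and from -1.55 to 10.37 in unirradiated mice, and its difference was 3.18 ± 2.17, or 1.63 without mouse 12.

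**Figure D4:**
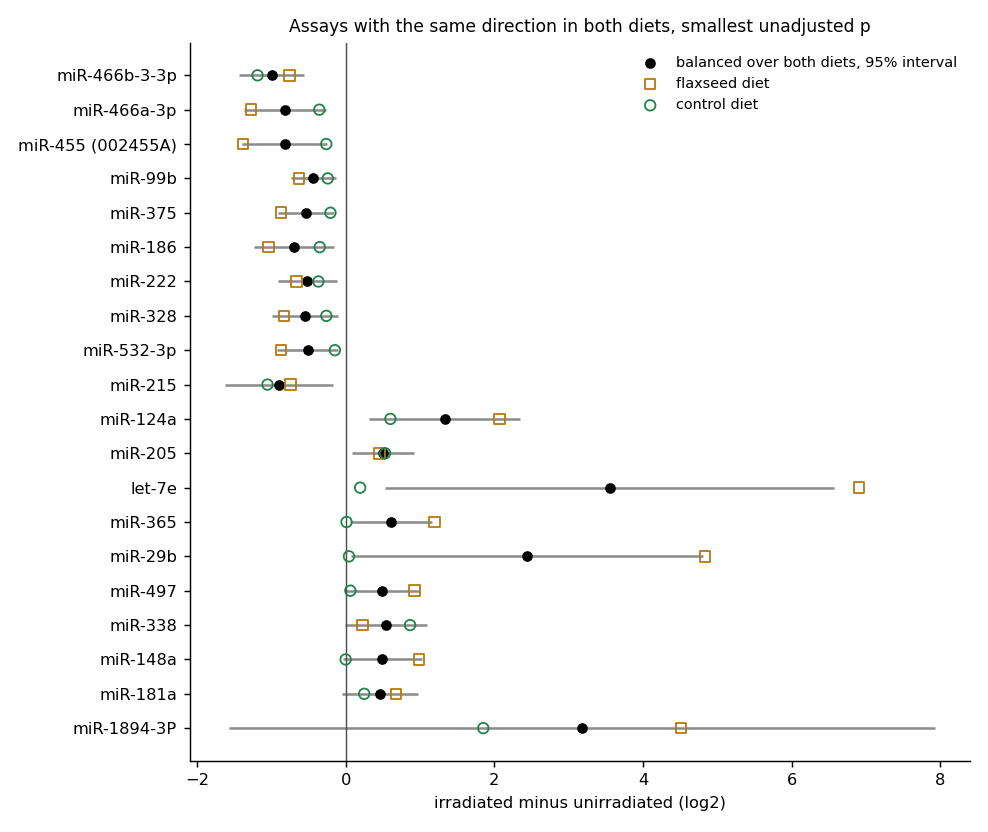
Radiation difference (irradiated minus unirradiated, log2 scale) of the 10 lower (upper rows) and 10 higher (lower rows) assays with the same direction in both diets and the smallest unadjusted p. Filled points and grey bars are the balanced difference and its 95% interval, open squares flaxseed mice and open circles control-diet mice. miR-205, miR-338, miR-466b-3-3p and miR-215 were the ones at least as far from 0 in control-diet as in flaxseed mice.

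MicroRNAs known for their place in the radiation response were not called. miR-34a, a direct p53 target, was at 3.18, 2.98 and 3.08 in irradiated flaxseed mice, against 3.66, 3.66 and 3.46 in unirradiated flaxseed mice. In control-diet mice it was at 2.30, 2.32 and 2.50 after irradiation, against 2.07, 2.43 and 2.44 without it. Its balanced difference was -0.22 ± 0.15 (95% interval -0.55 to 0.11; limma adjusted p = 0.646), with opposite signs in the diets. Of the 12 tested assays of p53-linked microRNAs, 4 were higher and 8 lower, with a median of -0.19 against -0.07 over all 296. At an unadjusted p under 0.05 were miR-215, miR-192 and miR-145 (-0.30 ± 0.14), a smooth muscle microRNA whose maturation p53 promotes, all lower, that is 3 of 12 where 6.42% of all assays were lower at that p. Among 6 microRNAs reported to repress DNA repair genes, none had the same direction in both diets, miR-421, a repressor of ATM, being at -0.32 ± 0.23 and miR-24, a repressor of histone H2AX, at 2.09 ± 1.08, or 1.06 without mouse 11.

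Of 7 inflammation-linked assays, 4 were lower in both diets, against 26.7% of all assays. miR-155, expressed in activated lymphocytes and macrophages, was the most negative of all 296 assays at -3.56 ± 1.60 and also the most scattered of the list. It was at -1.75, -0.33 and -0.83 in irradiated flaxseed mice, against 0.00, -0.34 and 9.33 in unirradiated flaxseed mice, and at 0.11, 3.09 and -0.02 in irradiated control-diet mice, against 4.66, 0.90 and 7.07 in unirradiated control-diet mice. The groups overlapped in both diets, and without mouse 13 the difference was -2.10. miR-146a, which restrains NF-kB signalling, differed by -0.41 ± 0.18, with -0.50 in flaxseed and -0.33 in control-diet mice. miR-21 was at 0.48 ± 0.53 over both diets, with 2.14 ± 0.40 in flaxseed and -0.84 ± 0.36 in control-diet mice. It was undetected in mouse 11, and the balanced value was 0.072 without mouse 12. The 3 members of the miR-29 family had a median of 2.44, from 0.18 (miR-29a) to 3.39 (miR-29c), with medians of 4.83 in flaxseed and 0.05 in control-diet mice. Without mouse 11, miR-29b was at 1.38 and miR-29c at 2.11 over both diets, and at 3.05 and 5.22 in flaxseed mice.

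Cell type markers were read to see which cells the lungs held. All 8 assays of the epithelial miR-200 family and miR-375, and both strands of the endothelial miR-126, were detected in all 12 mice, with mean cycles from 10.71 (miR-126) to 18.24 (miR-375). miR-150, abundant in mature lymphocytes, was at 3.64, 3.38 and 3.47 in irradiated flaxseed mice, against 4.63, 4.08 and 4.17 in unirradiated flaxseed mice. In control-diet mice it overlapped, at 5.24, 5.34 and 5.03 after irradiation, against 4.60, 5.85 and 5.31 without it, and the balanced difference was -0.42 ± 0.23 (limma adjusted p = 0.501). The mean level of the 4 lymphoid assays ranged from 1.38 to 3.24 in irradiated mice and from 1.73 to 4.26 in unirradiated mice. Without miR-155, that of the other 3 ranged from 2.18 to 3.29 in irradiated mice and from 2.42 to 3.26 in unirradiated mice. That of the 4 myeloid assays, of miR-142-3p, miR-142-5p and miR-223, ranged from 2.21 to 2.84 in irradiated mice and from 1.73 to 3.35 in unirradiated mice. The part of these cells in the differences above was not tested. The red cell miR-451 ranged from -1.28 to -0.03 in irradiated mice and from -2.61 to 1.13 in unirradiated mice. Endothelial miR-126 was at 0.05 ± 0.26 and its other arm, miR-126#, at 0.69 ± 0.48, each with opposite signs in the diets. Over all 20 lists, 0 assays were called.

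**Figure D5:**
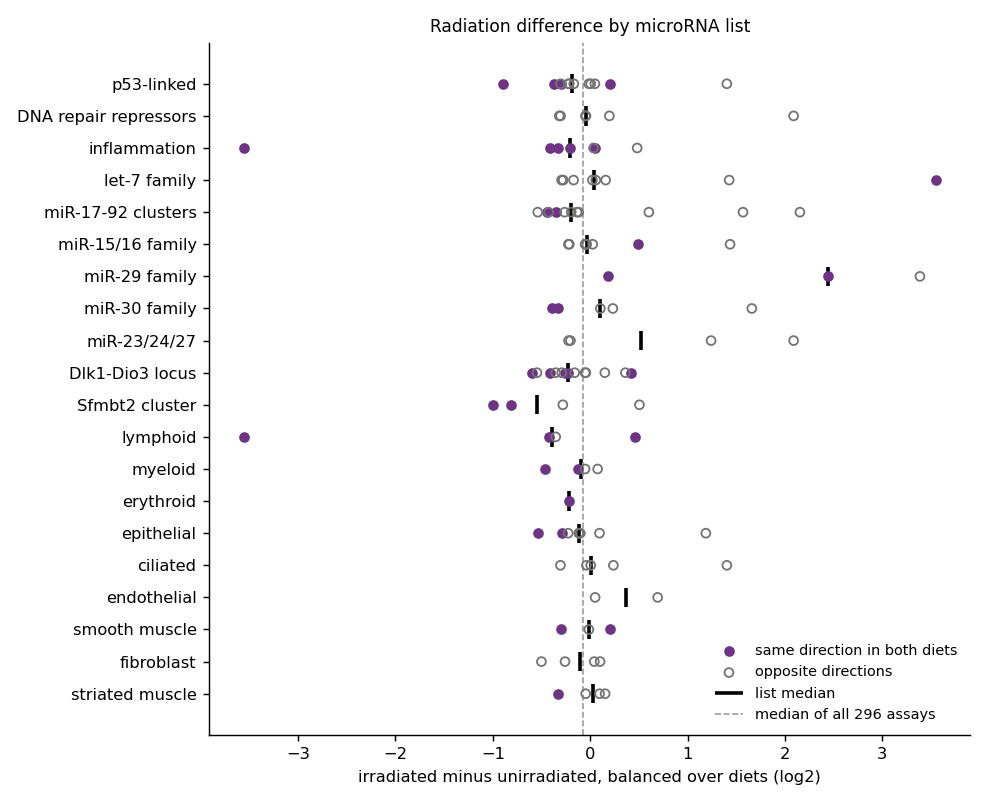
Balanced radiation difference (irradiated minus unirradiated, log2 scale) of each tested assay, by list of microRNAs. Purple points have the same direction in both diets, open points opposite directions, short bars are list medians and the dashed line is the median of all 296 assays, -0.07. The Sfmbt2 list, which does not hold miR-467#, has a median of -0.55 over 4 assays and the miR-29 family 2.44 over 3.

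Imprinted clusters and families gave mixed signs. On the list used here for the Sfmbt2 cluster, 4 assays were tested. They were miR-467a at 0.51 ± 0.62, miR-467c at -0.28 ± 0.24 and both miR-466 assays, with a median of -0.55 (-0.01 with no scaling). That list does not hold miR-467#, also a tested miR-467 assay. Without mouse 11, miR-467# was at -0.13 ± 0.29 over both diets, with -0.05 in control-diet mice. In the Dlk1-Dio3 locus, whose maternal allele makes a large group of microRNAs, 10 of the 13 tested assays on the list used here were lower, against 178 of all 296 (60.1%), and 4 of them in both diets. Their median was -0.23, or 0.31 with no scaling. That list does not hold miR-136 (0.10), miR-136# (-0.07) or miR-376b# (0.25), tested assays of the same locus. Of the 13, only miR-411 was at an unadjusted p under 0.05 (-0.41 ± 0.17). The let-7 family had 5 of 8 assays higher but only let-7e with the same direction in both diets. Within the cluster of miR-99b, let-7e and miR-125a, miR-99b was at -0.43, let-7e at 3.55 and miR-125a-5p at 1.51 ± 0.75, the last with 3.05 in flaxseed and -0.04 in control-diet mice. Without mouse 11, miR-125a-5p was at 0.76 over both diets and 1.77 in flaxseed mice. Of 11 microRNA names with 2 tested assays each, 5 had the same sign in both assays, among them miR-200c (-0.29 and -0.10) and miR-214 (-0.50 and -0.26). Assays that share a name may read different arms, which most of these names do not give.

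Where the radiation difference itself was tested between the diets, 25 of 296 assays (8.45%) were called for the interaction in limma, and all 25 were on opposite sides in the diets. miR-25, of the miR-106b cluster, was at 4.13 ± 0.54 in flaxseed and -0.48 ± 0.49 in control-diet mice, an interaction of 4.61 ± 0.73 (limma adjusted p = 0.0273). miR-21 had an interaction of 2.98 ± 0.54, and miR-340-5p, at 1.91 in flaxseed and -0.23 in control-diet mice, had 2.14 ± 0.43. miR-25 and miR-21 were undetected in mouse 11, so their unirradiated flaxseed values came from mice 12 and 13 alone. In the other direction, miR-26b# had -2.36 ± 0.45, miR-410 of the Dlk1-Dio3 locus -1.50 ± 0.31 and miR-503 -1.31 ± 0.27. miR-503 is on the miR-15/16 list used here, though its seed differs from that of miR-16 in the last base. The balanced values of these microRNAs average unlike differences. The same contrast cannot be told apart from a split in the deposited values: between 39.0% and 48.2% of values had exactly 4 decimals in irradiated flaxseed and unirradiated control-diet mice, and at most 0.656% did in the other 6 mice. The balanced comparison holds 3 mice of each kind on either side. The count of interaction calls was 9 with undetected reactions set to 28 cycles, 0 when scaled to the control RNAs and 0 without mouse 7, mouse 8 or mouse 18.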

How the data were processed

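TaqMan OpenArray plates were used to measure microRNAs in lung RNA of 12 mice by quantitative PCR. Per the labels' protocols, 100 ng of RNA was reverse transcribed in 2 primer pools (A and B), with 12 cycles of pre-amplification. The authors deposited relative threshold cycles (Crt) and a second table of normalized values, both on a log2 scale that runs downward. The calling of Crt and any averaging of repeat reactions are not stated there. A difference of 1 cycle was read as 1 on the log2 scale, which assumes doubling in each cycle.

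The Crt table names assays by position, so names were taken from the normalized table, where assays hold matching ranks in each mouse. Of 326 assays with a Crt, 322 were matched, 312 of microRNAs and 10 of control RNAs, and 4 with 40 values were left out. The names also stand in alphabetical order by position in 316 of the 322 matches and are off by 1 in the other 6. MicroRNA assay names carry a human, mouse, rat or fly prefix, which is left out here.

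Each mouse's mean over the 260 microRNA assays detected (Crt below 28) in all 12 mice was subtracted and the sign turned. The 296 tested assays (181 in pool A, 115 in pool B) include 36 with undetected reactions, which were treated as missing. The comparison was fitted in limma 3.58.1 (R 4.3.3) with diet and radiation as additive terms, 9 residual and 2.43 prior degrees of freedom, and p-values were adjusted over the 296 assays. Differences within a diet and the interaction come from a fit of 4 group means. Values per mouse were compared by exact permutation within diets. The fit was tested on simulated data. OpenArray reactions carry no read depth, so the number of mice and the Crt limit set the precision.

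Named assays were, in each direction, the 10 with the same direction in both diets and the smallest unadjusted p, those whose groups separated in both diets, the 6 with the smallest interaction p, 19 fixed microRNAs, and the highest and lowest of each of 20 lists. miR-26b, miR-192, miR-125a-5p, miR-411, miR-467c, miR-467#, miR-136, miR-136#, miR-376b#, miR-106b# and miR-213 were named after their values were seen. The members, the lists and the rule were chosen with earlier results of these data known. Alternatives were other scalings, Crt limits of 26, 30 and none, other treatments of undetected reactions, other models and leaving out mice.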

Additional observations from a re-analysis of the deposited data

Results flagged for a closer look

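In 12 cases 1 mouse stood apart from the 5 others of its radiation group by more than Dixon's 95% limit, which chance alone passes in about 1 in 20 groups. Among irradiated mice these were miR-187 in mouse 8 (-6.73, the nearest other mouse at -2.74), miR-544 in mouse 9 (-7.72), miR-532-3p in mouse 9 (-0.53), miR-26a in mouse 18 (7.88), miR-25 in mouse 17 (0.92) and miR-410 in mouse 7 (-3.72). Among unirradiated mice they were miR-466a-3p in mouse 13 (-4.10, the nearest other at -5.12), miR-29a in mouse 13 (5.73), miR-18a in mouse 12 (-0.30), miR-15b in mouse 4 (1.66), miR-365 in mouse 11 (-0.057) and miR-223 by assay 002295A in mouse 11 (5.65). Without mouse 8 the miR-187 difference was -0.80, and without mouse 13 that of miR-466a-3p was -0.60. All 12 cases were among the 68 named assays, each with an irradiated and an unirradiated group, so several would pass at that rate alone. Each radiation group also holds both diets, so a mouse can stand apart through its diet.

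In 11 of the 68 named assays the radiation difference itself differed between the diets at a limma adjusted p under 0.05, against 25 of all 296 (8.45%). Flaxseed minus control diet, it was 7.55 for miR-29c, 4.61 for miR-25, 3.62 for miR-34c, 3.14 for miR-467a, 2.98 for miR-21, 2.47 for miR-126#, 2.14 for miR-340-5p and 1.23 for miR-421. It was -1.31 for miR-503, -1.50 for miR-410 and -2.36 for miR-26b#. Of the 11, miR-340-5p, miR-25, miR-410, miR-21, miR-26b# and miR-503 were named for their small interaction p, so their passing was fixed by that choice. miR-25, miR-34c, miR-467a and miR-21 had no value in mouse 11. The differences of all 11 cannot be told apart from the split in decimal places of the deposited values.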

How the results depend on the processing

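The count of called assays stayed at 0 under all 30 alternatives, with the smallest limma adjusted p between 0.0817 (no diet block) and 0.573 (the authors' normalized values) and 12 to 54 assays at an unadjusted p under 0.05. Of 68 named assays, 23 kept their sign under every alternative and none was called under any. Without scaling, 197 assays had the same direction in both diets, and the sign turned for 25 named assays, to 0.10 for miR-99b, 0.023 for miR-222, 0.029 for miR-532-3p, 0.18 for miR-26a, 0.12 for miR-146a, 0.24 for miR-145, 0.24 for miR-200c (002300A), 0.44 for miR-200c (000505B), 0.14 for miR-30c, 0.035 for miR-214 (002306A), 0.11 for miR-150, 0.23 for miR-34b-3p, 0.21 for miR-133b, 0.27 for miR-210, 0.31 for miR-34a, 0.22 for miR-421, 0.18 for miR-410, 0.24 for let-7f, 0.26 for let-7b, 0.076 for miR-142-3p, 0.31 for miR-15b, 0.39 for miR-27b, 0.32 for miR-16, 0.41 for miR-223 (002295A) and 0.32 for miR-451. That follows from the construction, since the mean cycle of irradiated mice was 0.54 lower. Without mice 11, 12 and 13 the control diet alone informs the comparison, and the sign turned for miR-29c (-0.39), miR-340-5p (-0.23), miR-34c (-0.21), miR-25 (-0.48), miR-195 (-0.40), miR-30b (-0.44), miR-24 (-0.50), miR-429 (-0.29), miR-214 (002306A) (0.032), miR-19a (-0.67), miR-34b-3p (0.11), miR-34a (0.060), miR-126# (-0.54), miR-410 (0.40), let-7f (0.27), let-7b (0.25), miR-15b (0.089), miR-27b (0.17), miR-18a (0.51), miR-21 (-0.84), miR-467a (-0.89), miR-133a (-0.65), miR-223 (000526B) (-0.51), miR-126 (-0.52) and let-7a (-0.12). The authors' values turned miR-223 (002295A) (0.091) and miR-126 (-0.023), a Crt limit of 30 turned let-7a (-0.0010), no limit turned let-7a (-0.014) and miR-503 (-0.010), undetected reactions set to 28 turned miR-27b (1.63), and array weights turned miR-200c (000505B) (0.0065). Without mice 2 and 11, miR-223 (002295A) was at 0.13, miR-200c (000505B) at 0.12, miR-451 at 0.18 and miR-503 at -0.030. Leaving out each mouse in turn moved let-7a between -0.077 and 0.17, miR-126 between -0.10 and 0.22, miR-133a between -0.023 and 0.42, miR-199a-3p between -0.045 and 0.21, miR-200c (000505B) between -0.22 and 0.063, miR-223 (000526B) between -0.17 and 0.31, miR-223 (002295A) between -0.32 and 0.13, miR-26b# between -0.12 and 0.31, miR-451 between -0.59 and 0.24, miR-467a between -0.063 and 0.90 and miR-503 between -0.11 and 0.15. The assays whose groups separated on the same side in both diets numbered 1 with quantile normalization, 2 with scaling to the median assay, 2 within primer pools, 10 without mice 2 and 11, and 4 to 12 without each mouse in turn (12 without mouse 5, 8 without mouse 2, and 7 without mouse 7 or mouse 8). Calls for the interaction of diet with radiation numbered 16 with quantile normalization, 0 with scaling to the control RNAs, 7 with the authors' values, 16 with a Crt limit of 30 or none, 14 over assays detected in all 12 mice, 9 with undetected reactions set to 28, 60 at an adjusted p under 0.10, and 0 to 31 without each mouse in turn (0 without mouse 7, 8 or 18, 2 without mouse 17 and 10 without mouse 12). At a Crt limit of 26 the irradiated mice had 15.8 more detected assays than the unirradiated mice (exact permutation p = 0.005, the smallest possible). The causes of these shifts in counts were not tested. No paired analysis was possible because each mouse number occurs in 1 group only.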

Other observations

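The 16 microRNA assays that missed the detection rule in at least 1 group were, with 1 exception, detected in more irradiated than unirradiated mice. They were chosen for missing detection in a group, and unirradiated flaxseed mice had the fewest detected assays, 281 to 297. That direction was thus largely fixed by the choice, and the share over all 312 assays is not given here. All but miR-2135 were detected in at most 1 unirradiated flaxseed mouse. In the control diet only miR-382 and miR-2135 were detected in more irradiated than unirradiated mice, and miR-384-5p and miR-339-3p in fewer. The others were detected in all 3 mice of both control-diet groups. miR-382, of the Dlk1-Dio3 locus, was detected in all 6 irradiated mice and in 1 unirradiated mouse, mouse 2. Its cycles were 21.28, 20.80 and 21.05 in irradiated flaxseed mice and 21.11, 20.49 and 20.91 in irradiated control-diet mice, against 20.96 in mouse 2, well below the limit of 28. miR-2135 was detected in 3 of 3 irradiated and 1 of 3 unirradiated control-diet mice, and in all 6 flaxseed mice. In all, 7 assays, miR-382 among them, were detected in 0 of 3 unirradiated flaxseed mice, including miR-7, miR-96, miR-194 and miR-409-3p. miR-339-3p, the exception, was detected in 3 irradiated and 3 unirradiated mice, and the 3 irradiated ones were all on flaxseed. Across all assays the irradiated mice also had lower mean threshold cycles, and its part in these detections was not tested.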
